A study of Mus musculus with 48 samples.

Results

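The subject is the remnant kidney of C57BL/6 (B6) mice 53 days after subtotal nephrectomy (Nx), an operation that removes most of the kidney mass. Whole-kidney RNA of 4 Nx mice (labelled mouse 1, 2, 4 and 7) was set against that of 4 sham-operated B6 mice of the same day (mouse 1, 3, 5 and 6), each on 1 Affymetrix mouse array. These 8 arrays are 8 of 48 in the series, and they were taken by their labels for strain, surgery and day. The study also holds Nx and sham groups of 4 B6 mice each at day 28 and day 2 and of FVB mice, which are used below only where the day 53 remnant is compared with them. All mice were 9 weeks old at surgery, the labels give no drug or engineered allele for any group, and they describe FVB as the strain prone to renal lesions after Nx and B6 as the strain that is not. The comparison asks what a remnant that belongs to the lesion-resistant strain still expresses late after the loss of kidney mass.

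After nephron loss, the tubules that remain enlarge and each handles a larger load of filtrate. The proximal tubule takes back most of the filtered sugar, phosphate and amino acids, secretes organic anions and makes active vitamin D, while the loop, distal tubule and collecting duct adjust salt, water and acid. Injured tubule cells lose such transport genes and switch on genes such as Lcn2, Havcr1 and Vcam1, and scarring brings fibroblasts that lay down collagen together with macrophages.

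The RNA was that of kidney in all 8 samples. Umod, the urinary protein of the loop of Henle, lay between 15.01 and 15.26 on the log2 scale of the deposited values, against a median of 7.6 over all values kept. Xist lay between 13.15 and 13.43 and the Y-linked probe sets at the lowest value of the table, so no array stood apart by sex, which the labels do not give. Other tissues did differ between the groups. The mean of 19 pancreatic enzyme genes was 8.15, 3.52, 3.73 and 12.09 in Nx mice 1, 2, 4 and 7, against 3.47 to 3.54 in the sham mice, so Nx mice 1 and 7 stood apart. The mean of 10 adipose genes was 6.66 to 9.44 in the Nx mice, against 5.50 to 5.99 in the sham mice, without overlap. Their part in the results below was not tested beyond the values given. Counts and some of the calls are therefore also given without the arrays whose pancreatic mean lay above 5. That setting leaves Nx mice 2 and 4 against the 4 sham mice and so loses calls through the smaller group as well.

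Of 13174 genes tested, 1938 (14.7%) differed between Nx and sham kidneys at an adjusted p under 0.05 (limma, Benjamini-Hochberg over all genes). In Nx kidneys 1058 genes were higher (8.03%) and 880 were lower (6.68%), and these shares are the background for every gene list below. The rises reached further than the falls: 447 genes were at least 1 log2 unit higher (3.39%) and 118 at least 1 log2 unit lower (0.896%), and at 3 log2 units the counts were 47 (0.357%) and 4 (0.0304%). The median change of all genes was -0.012. The 4 Nx and 4 sham values did not overlap for 2863 genes (21.7%), of which 1681 also passed the test (12.8%). At an unadjusted p under 0.05 there were 3553 (27%). After quantile normalisation lower genes were in the majority, with 1065 higher and 1222 lower. Without the arrays with pancreatic RNA, 868 genes passed, 543 higher and 325 lower.

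Per-mouse values below are log2 values in the order Nx mice 1, 2, 4 and 7, then sham mice 1, 3, 5 and 6. The largest rise was that of Adipoq, the fat cell hormone adiponectin, with 10.45, 9.61, 11.30 and 11.42 in Nx kidneys against 3.65, 2.90, 2.72 and 3.57 in sham kidneys (log2 change 7.48, SE 1.21, adjusted p = 2.36e-05). It belongs to the adipose list whose mean was higher on every Nx array. Next came Ccl8, a chemokine that attracts monocytes, with 8.86, 8.30, 8.40 and 8.71 in Nx kidneys against 2.65, 2.61, 2.61 and 2.86 in sham kidneys. That is a 59.1-fold difference (log2 5.89, SE 0.68, adjusted p = 7.19e-08), and the Nx mice were close to each other. The lowest value of this probe set on any array was 2.57, and 2 of the 4 sham values lay within 0.05 of it, which limits the fold. Genes of matrix and macrophages filled most of the other places among the 12 largest rises: Cilp of cartilage-like matrix (5.23), the macrophage glycoprotein Gpnmb (5.11, a lower bound), the clotting factor subunit F13a1 (4.91), the matrix protein Ltbp2 (4.69), Serpinf1 (4.65), the macrophage elastase Mmp12 (4.60), the acute phase protein Hp (4.47), the injury marker Lcn2 (4.44), Retnla of alternatively activated macrophages (4.08) and periostin, Postn (4.06). With the adipose mean as a covariate, Hp (2.56, adjusted p = 0.0893) and Retnla (2.71, adjusted p = 0.0564) no longer passed, and Hp did not pass without the arrays with pancreatic RNA (4.04, adjusted p = 0.0595).

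**Figure D1:**
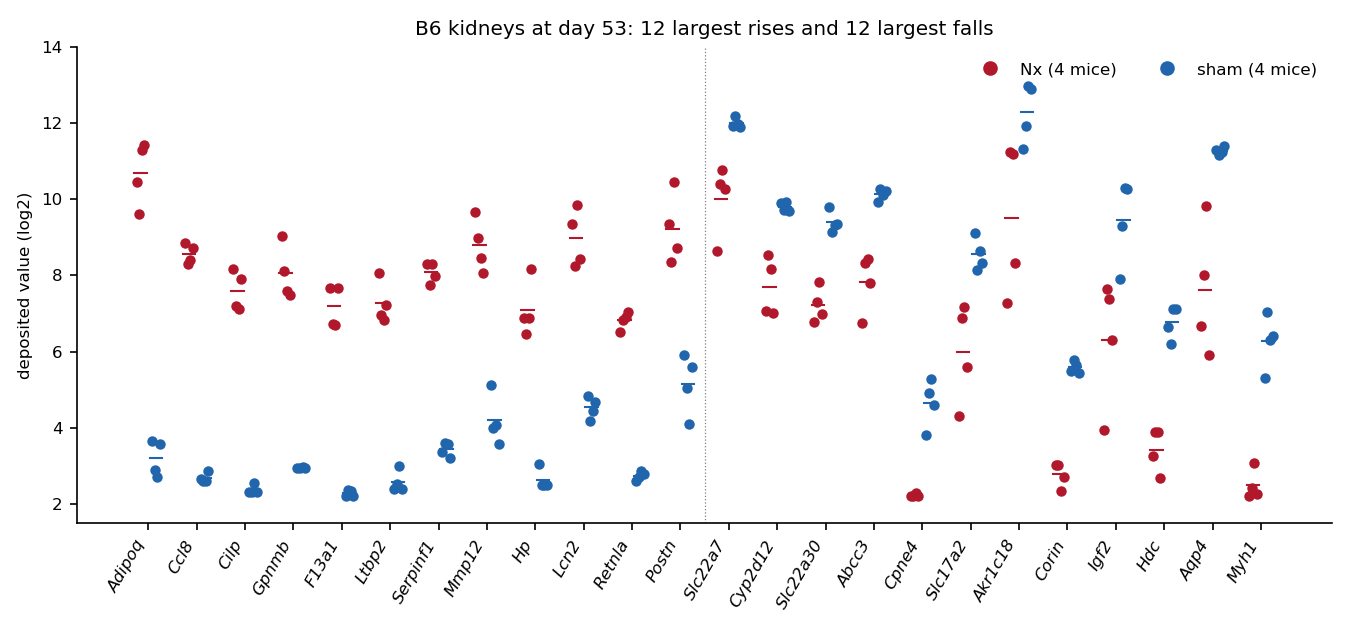
Deposited log2 values (vertical axis) of the 12 genes with the largest rises (left of the dotted line) and the 12 with the largest falls (right) among genes past the threshold without overlap, in B6 kidneys at day 53. Red points are the 4 Nx mice, blue points the 4 sham mice, and bars their means; Adipoq shows the widest gap, at 9.61 to 11.42 against 2.72 to 3.65, and Nx mice spread widely for Akr1c18 and Aqp4.

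Among the largest falls was that of Aqp4, a water channel of the basolateral membrane of collecting duct and proximal tubule cells. It measured 6.68, 8.01, 9.83 and 5.92 in Nx kidneys against 11.30, 11.16, 11.24 and 11.40 in sham kidneys (log2 change -3.67, SE 0.65, adjusted p = 8.48e-05). The sham mice were alike and the Nx mice were widely spread, with mice 1 and 7 lowest, and without the arrays with pancreatic RNA the change was -2.35 (adjusted p = 0.0399). Hdc, which makes histamine, had 3.26, 3.88, 3.88 and 2.68 in Nx kidneys against 6.65, 6.20, 7.12 and 7.12 in sham kidneys (-3.34, SE 0.64, adjusted p = 0.00022). Corin, the protease that activates natriuretic peptides, had 2.33 to 3.03 in Nx kidneys against 5.44 to 5.79 in sham kidneys (-2.81, SE 0.37, adjusted p = 9.37e-07). Both genes separated the groups without overlap. The growth factor Igf2 fell by 3.13, the steroid enzyme Akr1c18 by 2.77, the phosphate transporter family member Slc17a2 by 2.58, Cpne4 by 2.42, the efflux pump Abcc3 by 2.30, Slc22a30 by 2.18, the cytochrome Cyp2d12 by 2.10 and the organic anion transporter Slc22a7 by 1.98. Of these, Igf2 (-1.93), Akr1c18 (-1.07), Slc17a2 (-1.54), Slc22a30 (-1.83), Cyp2d12 (-1.45) and Slc22a7 (-1.42) did not pass without the arrays with pancreatic RNA, at adjusted p between 0.0678 and 0.224. With only the 8 arrays in the fit, Igf2 (adjusted p = 0.0684) and Akr1c18 (adjusted p = 0.113) did not pass. For Cpne4, 3 of 4 Nx values lay within 0.05 of its probe set's lowest value (2.21), which limits the size of its fall. Myh1, a skeletal muscle myosin, had the largest estimate of all falls (-3.78, adjusted p = 0.0204), but did not pass without Nx mouse 1 (-3.68, adjusted p = 0.0548) or sham mouse 3 (-3.51, adjusted p = 0.0604), nor without the arrays with pancreatic RNA (-3.51, adjusted p = 0.153).

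Genes of the proximal tubule moved both ways. Of 41 transport genes measured, 7 were higher, 9 lower and 25 did not pass (median -0.18, against -0.012 for all genes). The sulfate transporter Slc13a1 had 13.69, 13.28, 13.48 and 13.57 in Nx kidneys against 12.21, 12.17, 12.54 and 12.33 in sham kidneys, a 2.29-fold rise (log2 1.19, SE 0.13, adjusted p = 4.73e-08). The intestinal-type glucose transporter Slc5a1, which clears the glucose that remains late in the proximal tubule, had 11.02, 10.81, 10.65 and 11.01 against 10.25, 10.36, 10.04 and 9.95 (0.73, SE 0.11, adjusted p = 1.3e-05). All Nx values of both genes lay above all sham values. The organic anion transporter Slc22a6 (OAT1) had 11.80, 12.25, 12.15 and 12.12 in Nx kidneys against 10.95, 11.11, 11.37 and 11.32 in sham kidneys, a 1.86-fold rise (0.89, SE 0.14, adjusted p = 2.06e-05). Its relative Slc22a8 (OAT3) had 11.54, 11.72, 11.68 and 11.94 against 10.55, 11.21, 11.32 and 11.20 (0.65, SE 0.20, adjusted p = 0.0185), a call that did not hold without Nx mouse 7 (0.58, adjusted p = 0.0666), without sham mouse 1 (0.48, adjusted p = 0.111) or as a mean of all its probe sets (0.38, adjusted p = 0.304). Nor did it hold with only the 8 arrays in the fit (adjusted p = 0.0529) or without the arrays with pancreatic RNA (0.63, adjusted p = 0.12).

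The direction was the opposite for the high-capacity glucose transporter of the early tubule and for 1 phosphate transporter. Slc5a2 (SGLT2), which takes up most filtered glucose, had 11.44, 11.85, 11.75 and 11.70 in Nx kidneys against 12.55, 12.61, 12.30 and 12.56 in sham kidneys (-0.82, SE 0.18, adjusted p = 0.00101). Slc34a3, a sodium phosphate cotransporter, had 7.48, 8.19, 8.18 and 7.89 against 9.87, 9.92, 9.43 and 9.55, which is 3.38-fold lower in Nx kidneys (-1.76, SE 0.37, adjusted p = 0.000723). Slc34a1, the main phosphate cotransporter of the mouse proximal tubule, had 12.59 to 12.66 in Nx kidneys against 12.59 to 12.81 in sham kidneys and did not pass (-0.05, adjusted p = 0.928). The 2 phosphate transporters thus differed in size of change, with no test of that contrast made. The protein uptake receptor Lrp2 (megalin) fell by 0.41 (adjusted p = 0.0103), though not without Nx mouse 1 (-0.36, adjusted p = 0.05), while its partner Cubn did not pass (-0.20, adjusted p = 0.368). The water channel Aqp1 fell by 0.46 (adjusted p = 0.00782). The count of higher transport genes was 4 without Nx mouse 7, 3 without sham mouse 1 and 4 without the arrays with pancreatic RNA, where the count of lower ones was 2 and Aqp1 (-0.44, adjusted p = 0.0808) and Lrp2 (-0.28, adjusted p = 0.261) did not pass. With the adipose covariate Aqp1 (-0.39, adjusted p = 0.0605) and Lrp2 (-0.33, adjusted p = 0.084) did not pass either. With array weights 16 transport genes were lower. These are bulk measurements, in which fewer cells of a type and less RNA per cell cannot be told apart.

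The promoters of 3 of these transporters are shown because Slc22a6 and Slc22a8, both on chromosome 19, rose and Slc34a3 fell. Each is 300 bases from RefSeq (build GRCm38.p6), 250 before the transcription start and 50 after it, written 5′ to 3′ on the gene's own strand. Capitals mark GTTAAT, one arm of the site bound by the HNF1 factors of the proximal tubule, searched on both strands.
Slc22a6 (chr19:8617746-8618045, plus strand): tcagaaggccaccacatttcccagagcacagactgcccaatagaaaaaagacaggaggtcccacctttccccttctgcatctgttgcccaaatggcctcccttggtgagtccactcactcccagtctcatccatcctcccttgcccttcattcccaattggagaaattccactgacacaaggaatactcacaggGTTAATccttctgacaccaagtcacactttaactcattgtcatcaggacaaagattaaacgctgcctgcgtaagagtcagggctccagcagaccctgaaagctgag
Slc22a8 (chr19:8592932-8593231, plus strand): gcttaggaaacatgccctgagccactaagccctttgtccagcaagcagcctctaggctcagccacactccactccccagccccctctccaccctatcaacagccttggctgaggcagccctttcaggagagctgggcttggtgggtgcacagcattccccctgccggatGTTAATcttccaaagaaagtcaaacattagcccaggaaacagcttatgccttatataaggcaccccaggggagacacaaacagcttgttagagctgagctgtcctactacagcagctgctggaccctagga
Slc34a3 (chr2:25234185-25234484, minus strand): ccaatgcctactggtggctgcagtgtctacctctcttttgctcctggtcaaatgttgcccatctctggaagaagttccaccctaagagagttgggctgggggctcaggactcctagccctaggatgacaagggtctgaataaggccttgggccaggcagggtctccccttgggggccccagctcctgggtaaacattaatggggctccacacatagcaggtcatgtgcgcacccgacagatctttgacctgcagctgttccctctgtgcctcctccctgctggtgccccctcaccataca
The letters occur once in Slc22a6, beginning 56 bases before the start, once in Slc22a8, beginning 81 bases before it, and not in the Slc34a3 window. They occur in 7.1% of the 32817 mouse promoter windows of this length. These promoters were picked after values were seen, and promoters of other transporters that rose or fell are not shown. Whether the letters go with the direction of change was not tested. In FVB kidneys of day 53 Slc22a8, which has them, changed by -1.72.

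Enzymes of vitamin D metabolism were among the larger rises. Of 16 genes of phosphate and vitamin D handling, 3 were higher, 2 lower and 11 did not pass (median 0.11). Cyp27b1, the renal enzyme that makes active vitamin D, had 8.29, 7.42, 7.70 and 9.18 in Nx kidneys against 5.59, 5.53, 3.42 and 4.14 in sham kidneys, an 11.1-fold rise (3.47, SE 0.60, adjusted p = 5.84e-05). Cyp24a1, which degrades active vitamin D, had 10.60, 12.22, 11.43 and 11.06 against 7.97, 7.94, 7.26 and 9.12, a 9.54-fold rise (3.25, SE 0.70, adjusted p = 0.000918). Enzymes of synthesis and of breakdown were thus both higher in all 4 Nx mice than in any sham mouse. The vitamin D receptor Vdr did not pass (-0.06, adjusted p = 0.87). Kl (klotho), the coreceptor for the phosphate hormone FGF23, had 11.43, 11.68, 11.70 and 11.42 in Nx kidneys against 12.31, 12.18, 11.98 and 11.99 in sham kidneys (-0.56, SE 0.16, adjusted p = 0.0142). The klotho call did not hold without Nx mouse 1 (-0.52, adjusted p = 0.0537) or sham mouse 1 (-0.50, adjusted p = 0.053), with the adipose covariate (-0.46, adjusted p = 0.0979) or without the arrays with pancreatic RNA (-0.43, adjusted p = 0.228). Fgfr1, a receptor that pairs with klotho, was higher by 0.37 (adjusted p = 0.0393), with overlapping groups and with no call when any 1 of 7 of the 8 mice was left out (adjusted p 0.0503 to 0.161).

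Among 29 proximal tubule enzymes and peptidases, 5 were higher and 5 lower (median -0.08). The acyl-CoA synthetase Acsm3 had 6.82, 6.02, 6.61 and 6.79 in Nx kidneys against 3.40, 3.51, 3.51 and 3.61 in sham kidneys, an 8.29-fold rise (3.05, SE 0.46, adjusted p = 9.37e-06). The cytochrome Cyp2e1 rose by 1.31 (SE 0.26, adjusted p = 0.000354) and the brush border peptidase Enpep by 0.39 (SE 0.08, adjusted p = 0.000492). Acsm3 and Cyp2e1 also belong to a list of 15 genes that androgens raise in mouse kidney, of which 5 were higher and 2 lower (median 0.47). With only the 8 arrays in the fit 8 were higher in each of these 2 lists. Its best known member, Kap, did not pass (-0.37, adjusted p = 0.63). The count of lower enzymes was 3 without Nx mouse 1, sham mouse 3 or sham mouse 6, and 0 without the arrays with pancreatic RNA, 2 with the adipose covariate and 8 with array weights.

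**Figure D2:**
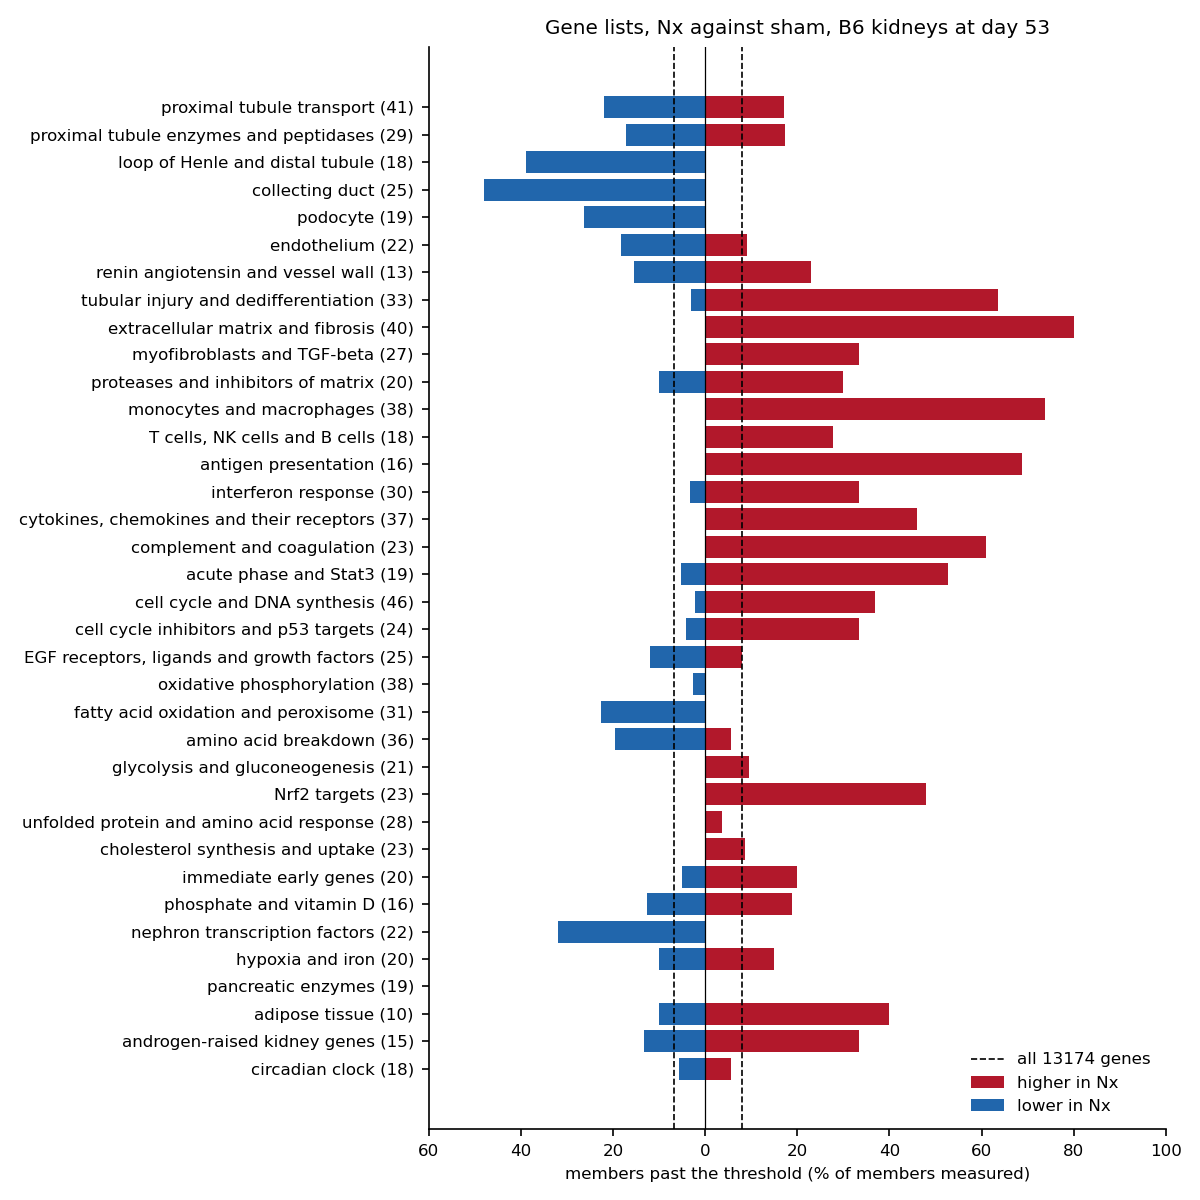
Share of the measured members of each gene list (number measured in brackets) that passed the threshold in Nx against sham B6 kidneys at day 53, with higher members to the right of 0 in red and lower members to the left in blue; dashed lines mark the shares for all 13174 genes, 8.03% higher and 6.68% lower. Matrix, macrophage and antigen presentation lists reach furthest to the right, and collecting duct, loop and nephron transcription factor lists lie on the left with no higher member.

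In 3 further nephron lists no member was higher, and the list of transcription factors includes factors of the proximal tubule. In the collecting duct 12 of 25 genes were lower (median -0.49), in the loop of Henle and distal tubule 7 of 18 (median -0.38) and among nephron transcription factors 7 of 22 (median -0.31). The collecting duct genes that fell included genes of principal cells and those of acid and base handling by intercalated cells. Slc26a4 (pendrin), their chloride and bicarbonate exchanger, had 8.06, 8.94, 8.82 and 8.74 in Nx kidneys against 9.86, 10.22, 9.99 and 10.00 in sham kidneys (-1.38, SE 0.20, adjusted p = 6.65e-06). The bicarbonate exchanger Slc4a1 fell by 1.37 (SE 0.25, adjusted p = 0.000138), the ammonia channel Rhcg by 1.26 (SE 0.19, adjusted p = 8.43e-06) and Foxi1, the transcription factor that specifies intercalated cells, by 1.29 (SE 0.25, adjusted p = 0.000225). Foxi1 measured 5.48, 5.61, 6.22 and 5.99 in Nx kidneys against 7.09, 7.12, 7.04 and 7.22 in sham kidneys. Each of these genes separated the groups without overlap. Slc4a9, Rhbg and the proton pump subunit Atp6v1b1 fell by 1.24, 0.90 and 0.80, while the subunit Atp6v0a4 did not pass (-0.06, adjusted p = 0.881). Of principal cell genes, the sodium channel subunits Scnn1a and Scnn1b fell by 0.50 and 0.49. Hsd11b2 fell by 0.53 (adjusted p = 0.000492) and Nr3c2 by 0.45 (adjusted p = 0.0405). Whether the calls of Scnn1a, Scnn1b, Hsd11b2 and Nr3c2 hold without the arrays with pancreatic RNA is not given here. Aqp4, given above, had the largest fall of the collecting duct list (-3.67). The vasopressin-regulated water channel Aqp2 did not pass (-0.08, adjusted p = 0.934).

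In the loop and distal tubule, Trpm6, the magnesium channel of the distal convoluted tubule, had 6.76, 6.82, 6.78 and 7.75 in Nx kidneys against 8.48, 8.14, 7.81 and 8.24 in sham kidneys (-1.14, SE 0.30, adjusted p = 0.0058). The calcium-sensing receptor Casr fell by 0.81 (SE 0.18, adjusted p = 0.00108) and the potassium channel Kcnj1 by 0.42 (SE 0.11, adjusted p = 0.00452). The sodium chloride cotransporter Slc12a3 (-0.37, adjusted p = 0.213), Umod (-0.15, adjusted p = 0.212) and the growth factor Egf (-0.46, adjusted p = 0.0572) did not pass. Slc12a3 and Egf did pass with array weights (adjusted p = 0.0405 and 0.00322) and with only the 8 arrays in the fit (0.0277 and 0.0166). Egf also passed with the pancreatic covariate (0.0371), the replicate block (0.0467) and the stricter filter (0.0463). The loop cotransporter Slc12a1 passed narrowly (-0.43, adjusted p = 0.0448) and did not pass when any 1 of 7 of the 8 mice was left out (adjusted p 0.0589 to 0.121). Among the transcription factors, Sim1 of the proximal tubule fell by 0.75 (SE 0.15, adjusted p = 0.000404) and Pou3f3 of the loop by 0.43 (SE 0.11, adjusted p = 0.00538). Hnf4a (-0.27) and Pax8 (-0.31) did not pass. The count of lower loop genes was 4 without Nx mouse 1, and with the adipose covariate 4 loop genes and 4 transcription factors were lower. Without the arrays with pancreatic RNA the counts were 8 for the collecting duct, 2 for the loop and 3 for the transcription factors, and Kcnj1 (-0.36, adjusted p = 0.0948) and Pou3f3 (-0.32, adjusted p = 0.164) did not pass.

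Of 19 podocyte genes measured, 5 were lower and none was higher (median -0.32). Npnt, the basement membrane ligand nephronectin, had 10.84, 11.09, 11.49 and 10.73 in Nx kidneys against 12.01, 11.81, 11.94 and 12.01 in sham kidneys (-0.91, SE 0.15, adjusted p = 3.83e-05). The sialoprotein Podxl fell by 0.61 (SE 0.13, adjusted p = 0.0013) and the transcription factor Wt1 by 0.87 (SE 0.24, adjusted p = 0.00957), while nephrin, Nphs1, did not pass (-0.37, adjusted p = 0.388). The count was 3 without Nx mouse 7 and 2 without the arrays with pancreatic RNA, where Wt1 did not pass (-0.74, adjusted p = 0.144). Of 22 endothelial genes 2 were higher and 4 lower: the apelin receptor Aplnr rose by 1.16 (SE 0.26, adjusted p = 0.00141), and Ehd3, a marker of glomerular endothelium, fell by 0.64 (SE 0.11, adjusted p = 3.83e-05). Ace, which converts angiotensin, had 5.54, 5.80, 6.26 and 6.27 in Nx kidneys against 6.90, 7.24, 7.05 and 6.99 in sham kidneys (-1.08, SE 0.22, adjusted p = 0.000546).

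Of 38 oxidative phosphorylation genes 1 was lower, a smaller share than the 6.68% of all genes, and 37 did not pass (median -0.04). Their mean per mouse was 13.30 to 13.40 in Nx kidneys against 13.38 to 13.42 in sham kidneys. Fatty acid oxidation gave 7 lower members of 31 and no higher one (median -0.16). Acox2, a peroxisomal oxidase of branched fatty acids and bile acid intermediates, had 9.58, 9.40, 9.84 and 9.62 in Nx kidneys against 10.77, 10.97, 10.74 and 10.64 in sham kidneys (-1.17, SE 0.12, adjusted p = 8.49e-09). The thioesterase Acot1 fell by 0.86 (SE 0.18, adjusted p = 0.000523) and the dehydrogenase Acadm by 0.41 (SE 0.11, adjusted p = 0.00503). The count was 4 without Nx mouse 1 and 2 without the arrays with pancreatic RNA, where Acadm did not pass (-0.29, adjusted p = 0.176). Of 36 amino acid breakdown genes 7 were lower and 2 higher (median -0.13). The lower count was 4 without the arrays with pancreatic RNA and 12 with array weights. The higher pair was Glud1, which frees ammonia from glutamate (0.72, SE 0.09, adjusted p = 1.3e-07), and the lysine enzyme Aass (0.60, SE 0.13, adjusted p = 0.000647). Glud1 measured 13.71, 13.83, 13.66 and 13.75 in Nx kidneys against 12.73, 13.09, 13.12 and 13.13 in sham kidneys, with no overlap.

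Of 23 targets of Nrf2, the factor that answers oxidative stress, 11 were higher and none lower (median 0.23). The carbonyl reductase Cbr3 had 10.39, 9.73, 9.12 and 10.84 in Nx kidneys against 7.08, 7.92, 8.01 and 7.83 in sham kidneys (2.31, SE 0.39, adjusted p = 3.97e-05). The epoxide hydrolase Ephx1 rose by 1.05 (SE 0.14, adjusted p = 1.77e-06) and Pgd of the pentose phosphate pathway by 0.73 (SE 0.14, adjusted p = 0.000183), while heme oxygenase Hmox1 (-0.08) and the glutathione enzyme subunit Gclc (-0.29) did not pass. The count was 7 without sham mouse 1 and with the adipose mean as a covariate, and 5 without the arrays with pancreatic RNA. Glycolysis (2 of 21 higher, median 0.14), the unfolded protein response (1 of 28 higher, median -0.03), cholesterol synthesis (2 of 23 higher, median 0.22) and hypoxia and iron genes (3 of 20 higher, 2 lower, median 0.04) lay near the background.

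Tubular injury genes were raised as a group: of 33 measured, 21 were higher, 1 lower and 11 did not pass (median 0.85). Lcn2, an iron-binding protein released by injured tubules, had 9.36, 8.24, 9.86 and 8.43 in Nx kidneys against 4.84, 4.17, 4.45 and 4.68 in sham kidneys, a 21.7-fold rise (4.44, SE 0.44, adjusted p = 3.51e-09). The adhesion molecule Vcam1 had 10.79, 10.32, 10.35 and 10.52 against 8.28, 8.08, 8.07 and 8.08 (2.37, SE 0.22, adjusted p = 7.11e-10). Havcr1 (KIM-1) rose by 3.27, the hyaluronan receptor Cd44 by 3.50, vimentin, Vim, by 1.51 and the fibrinogen chain Fgg by 3.30, and the keratins Krt19, Krt18 and Krt8 rose by 1.76, 0.85 and 0.47, the last pair with overlapping groups. Other injury genes stayed low. Krt20, a keratin of superficial epithelium, had 3.62, 3.15, 4.48 and 3.09 in Nx kidneys against 3.03 to 3.05 in sham kidneys and did not pass (0.54, adjusted p = 0.0828). All Nx values of Krt20 still lay above the sham values. It did pass with array weights (adjusted p = 0.014) and the pancreatic covariate (0.0488), and without Nx mouse 2 (0.0345) or Nx mouse 7 (0.0298). Mmp7 lay near the lowest value in both groups (at most 2.36 in Nx kidneys). Sox9, a marker of regenerating tubule, changed by 0.17 without passing. All 4 sham and 2 of 4 Nx values of Sox9 lay within 0.05 of its probe set's lowest value (2.28), so it was hardly measured. The member that fell was Itgb6, an integrin subunit that activates TGF-beta, with 7.58, 7.78, 7.64 and 6.93 in Nx kidneys against 9.24, 8.93, 8.94 and 8.73 in sham kidneys (-1.48, SE 0.30, adjusted p = 0.000484). Without the arrays with pancreatic RNA 12 members were higher.

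Matrix genes gave the largest share of calls among the kidney and process lists with at least 10 members measured. Of 40 measured, 32 were higher and none lower (median 1.56), and 27 were higher without the arrays with pancreatic RNA. Col3a1, a fibrillar collagen chain, had 13.51, 12.69, 13.19 and 12.59 in Nx kidneys against 10.72, 9.87, 9.89 and 9.55 in sham kidneys, a 7.93-fold rise (2.99, SE 0.33, adjusted p = 2.61e-08). Col1a2 rose by 2.26 (SE 0.24, adjusted p = 2.2e-08), Col1a1 by 3.34, fibronectin, Fn1, by 1.80 (SE 0.31, adjusted p = 5.89e-05) and the basement membrane chain Col4a1 by 0.98 (SE 0.15, adjusted p = 1.42e-05). Small proteoglycans and crosslinking enzymes moved with them, with lumican, Lum, at 3.99, decorin, Dcn, at 2.24 and the lysyl oxidase Lox at 2.42. Postn, a matricellular protein of activated fibroblasts, had 9.36, 8.35, 10.46 and 8.73 in Nx kidneys against 5.91, 5.04, 4.11 and 5.59 in sham kidneys (4.06, SE 0.60, adjusted p = 6.49e-06). The TGF-beta and stretch target Ccn2 did not pass (-0.40).

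Of 27 myofibroblast and TGF-beta genes 9 were higher and none lower (median 0.39; 5 higher without the arrays with pancreatic RNA). Smooth muscle actin, Acta2, had 11.47, 11.31, 12.20 and 11.45 in Nx kidneys against 10.88, 10.84, 10.62 and 10.77 in sham kidneys (0.83, SE 0.17, adjusted p = 0.000578), and Tagln rose by 1.43 (SE 0.22, adjusted p = 1.15e-05). The receptor Tgfbr2 rose by 0.74 (SE 0.13, adjusted p = 8.56e-05) and the target Tgfbi by 1.40 (SE 0.24, adjusted p = 6.26e-05), whereas the probe set used for the ligand Tgfb1 lay at the lowest value of the table on all 8 arrays and so gives no measure of it. Of 20 proteases and inhibitors of matrix 6 were higher and 2 lower (median 0.32), the same counts of higher genes with and without the arrays with pancreatic RNA. The inhibitor Timp1 had 6.89, 4.92, 4.84 and 6.30 in Nx kidneys and lay at the lowest value on all sham arrays, so it was at least 11-fold higher (adjusted p = 1.26e-05). Mmp12 had 9.68, 8.98, 8.47 and 8.06 against 5.13, 4.00, 4.08 and 3.57 (4.60, SE 0.58, adjusted p = 4.25e-07), and the gelatinase Mmp2 rose by 2.69 (SE 0.33, adjusted p = 2.8e-07). The plasminogen activators Plau (-0.84) and Plat (-0.54) were the 2 lower members, and Plat did not pass without the arrays with pancreatic RNA (-0.49, adjusted p = 0.11).

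**Figure D3:**
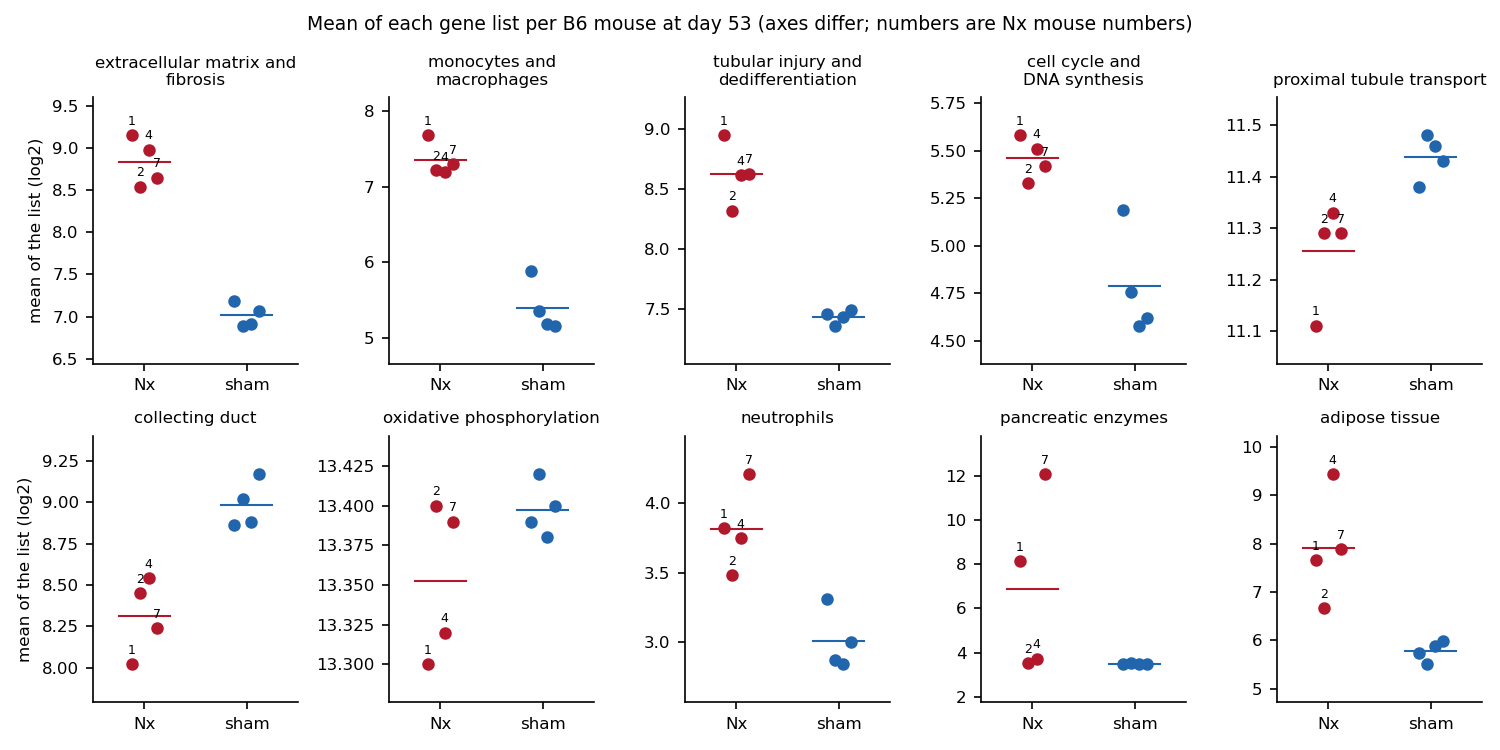
Mean log2 value over the measured members of 10 gene lists in each B6 mouse at day 53 (vertical axes differ and do not start at 0), with Nx mice in red at the left of each panel and sham mice in blue; bars are group means and numbers are Nx mouse numbers. Matrix means run from 8.54 to 9.15 in Nx mice against 6.89 to 7.19 in sham mice, while the pancreatic enzyme mean is far above the other mice in Nx mice 1 and 7.

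Of 38 monocyte and macrophage genes 28 were higher and none lower (median 2.04), with 24 higher without the arrays with pancreatic RNA. The list mean was 7.68, 7.22, 7.20 and 7.30 in Nx mice against 5.88, 5.36, 5.19 and 5.16 in sham mice. The macrophage surface marker Adgre1 had 8.47, 8.06, 7.96 and 8.07 in Nx kidneys against 6.90, 5.94, 5.91 and 5.66 in sham kidneys (2.04, SE 0.33, adjusted p = 2.49e-05). Lysozyme Lyz2 had 12.60, 12.38, 12.36 and 11.98 against 9.67, 9.08, 8.43 and 8.24 (3.48, SE 0.42, adjusted p = 1.81e-07). The mannose receptor Mrc1, a marker of alternatively activated cells, rose by 2.61 (SE 0.35, adjusted p = 1.56e-06), and the monocyte chemokine receptor Ccr2 by 2.11 (SE 0.43, adjusted p = 0.000451; as a mean of its probe sets 0.85, adjusted p = 0.0642). Arg1 and Chil3 also mark alternative activation. They lay within 0.05 of their probe sets' lowest value on all 4 Nx and all 4 sham arrays, which gives no measure of a change. The scavenger receptors Cd163 (0.87) and Msr1 (0.41) did not pass. Gpnmb, which marks lipid-handling macrophages, had 9.04, 8.13, 7.58 and 7.49 in Nx kidneys against 2.94 to 2.98 in sham kidneys (5.11, SE 0.55, adjusted p = 2.06e-08). The sham values lay within 0.05 of the lowest value that this probe set had on any of the 48 arrays, so it was at least 34.5-fold higher, with all Nx values far above them.

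Of 37 cytokine, chemokine and receptor genes 17 were higher and none lower (median 0.77; 8 higher without the arrays with pancreatic RNA). Among them were CC chemokines. Ccl12 had 6.32, 5.01, 5.44 and 5.93 in Nx kidneys against 2.32 to 2.60 in sham kidneys (3.28, SE 0.55, adjusted p = 4.59e-05), and Ccl9, Ccl6, Ccl5 and Ccl2 rose by 3.83, 2.99, 2.43 and 1.90. The growth factor Csf1 rose by 1.13. Il34, which binds the same receptor, did not pass (0.06). All 4 sham and 2 of 4 Nx values of Il34 lay within 0.05 of its probe set's lowest value, so the genes cannot be contrasted. The neutrophil chemokine Cxcl5 lay at the lowest value in all 8 mice. Il6 and Il1rn lay within 0.05 of it in all 8 mice, which gives no measure of a change. Of 7 neutrophil genes measured only Lcn2, which tubules also make, was higher (median 0.25). S100a8 had 3.92, 3.62, 3.68 and 6.06 in Nx kidneys against 4.39, 3.69, 3.69 and 3.68 in sham kidneys (0.46, adjusted p = 0.863), with Nx mouse 7 alone above the sham mice.

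Among 18 lymphocyte genes that passed the filter on low values, of 29 on the array, 5 were higher and none lower (median 0.19). Jchain, the joining chain of plasma cell antibodies, had 8.68, 9.21, 7.98 and 8.23 in Nx kidneys against 5.73, 4.57, 5.54 and 5.85 in sham kidneys (3.10, SE 0.65, adjusted p = 0.000647). Lymphotoxin Ltb rose by 1.67 (SE 0.32, adjusted p = 0.000251) and the chemokine receptor Cxcr6 of T cells by 1.21 (SE 0.30, adjusted p = 0.00398). The T cell receptor chain Cd3d (1.31, adjusted p = 0.0432) did not pass when Nx mouse 2 or 7 or sham mouse 3, 5 or 6 was left out (adjusted p 0.0834 to 0.158). The count was 3 without Nx mouse 2, Nx mouse 7, sham mouse 3, 5 or 6, or the arrays with pancreatic RNA, with the adipose covariate and with no filter on low values, and 2 with the stricter filter. With array weights it was 8. Antigen presentation was higher in 11 of 16 genes (median 0.91; 7 without sham mouse 5, 6 without the arrays with pancreatic RNA). The class II gene H2-Ab1 had 11.82, 11.51, 11.31 and 11.78 in Nx kidneys against 10.32, 10.10, 9.81 and 9.92 in sham kidneys (1.57, SE 0.27, adjusted p = 6.93e-05), and the class I light chain B2m rose by 0.59 (SE 0.10, adjusted p = 7.67e-05).

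Of 30 interferon response genes 10 were higher and 1 lower (median 0.49), with 6 higher without Nx mouse 1, 4 with the adipose mean as a covariate and 3 without the arrays with pancreatic RNA. Trim30a rose by 1.15 (SE 0.21, adjusted p = 0.000114) and Oas1a, a sensor of double-stranded RNA, by 1.23 (SE 0.30, adjusted p = 0.0034), while the regulator Irf7 lay at 2.21 to 2.34 in Nx kidneys and 2.21 in sham kidneys, near the lowest value. Complement and coagulation genes were higher in 14 of 23 (median 1.20; 10 without the arrays with pancreatic RNA). The initiator chains C1qa, C1qb and C1qc, which macrophages make, rose by 2.16, 2.11 and 2.93, and the inhibitor Serping1 by 1.30 (SE 0.19, adjusted p = 6.64e-06). Of 19 acute phase genes 10 rose and 1 fell (median 0.90; 4 higher without the arrays with pancreatic RNA). The cytokine feedback inhibitor Socs3 had 9.84, 8.65, 8.86 and 9.50 in Nx kidneys against 7.01, 6.86, 6.92 and 6.78 in sham kidneys (2.32, SE 0.27, adjusted p = 9.95e-08), and Stat3, the factor it restrains, rose by 0.90 (SE 0.11, adjusted p = 5.08e-07).

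Some cell cycle genes were still raised at day 53. Of 46 measured 17 were higher and 1 lower (median 0.52; 10 higher without the arrays with pancreatic RNA). Mki67, a marker of dividing cells, had 7.11, 6.60, 7.02 and 6.79 in Nx kidneys against 6.00, 4.04, 3.29 and 3.56 in sham kidneys (2.66, SE 0.42, adjusted p = 1.99e-05), and the mitotic kinase Cdk1 had 6.36, 5.49, 6.12 and 6.24 against 4.88, 3.65, 3.46 and 3.47 (2.19, SE 0.33, adjusted p = 6.79e-06). Sham mouse 1 was the highest sham mouse for both. The mitotic kinase Aurka was near the lowest value in all 8 mice, and the replication factors Pcna (0.14) and Mcm6 (-0.17) did not pass. Of 24 cell cycle inhibitors and p53 targets 8 were higher and 1 lower (median 0.16), with 4 higher without Nx mouse 1, sham mouse 5 or sham mouse 6, 5 with the adipose covariate or with no filter on low values, and 1 without the arrays with pancreatic RNA. Cdkn1a (p21) had 6.80, 6.09, 6.46 and 6.58 in Nx kidneys against 5.61, 5.37, 5.49 and 5.46 in sham kidneys (1.00, SE 0.21, adjusted p = 0.000862), and Phlda3, a p53 target that restrains Akt, rose by 1.64 (SE 0.25, adjusted p = 8.18e-06). The list of 25 growth factor genes had 2 higher and 3 lower, which lay near the background (8.03% and 6.68% of all genes). Igf1 was higher by 1.11 (SE 0.28, adjusted p = 0.00421) and Fgf1 lower by 0.93 (SE 0.23, adjusted p = 0.0033). Of 20 immediate early genes 4 were higher and 1 lower (median 0.16), among them Myc (1.24, SE 0.30, adjusted p = 0.00339), which measured 7.66, 5.86, 5.95 and 6.69 in Nx kidneys against 5.51, 5.85, 5.17 and 4.65 in sham kidneys. Without the arrays with pancreatic RNA Cdkn1a (0.79, adjusted p = 0.0599), Fgf1 (-0.77, adjusted p = 0.0976) and Myc (0.61, adjusted p = 0.304) did not pass, and neither did Myc with only the 8 arrays in the fit (adjusted p = 0.116).

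The adipose list had 4 higher members and 1 lower one among 10 measured (median 1.72). Besides Adipoq, the hormone Retn had 8.11, 6.64, 8.96 and 9.67 in Nx kidneys against 4.45 in each sham mouse (3.89, SE 0.86, adjusted p = 0.00128). Since 4.45 was the lowest value of that probe set on any array, Retn was at least 14.9-fold higher. The lipid droplet protein Cidec rose by 3.87 (SE 0.94, adjusted p = 0.00339; 3.39 without the arrays with pancreatic RNA, adjusted p = 0.0769). None of 19 pancreatic enzyme genes passed (limma; median 3.77). Ctrl, a chymotrypsin-like enzyme, had 8.70, 2.21, 2.81 and 13.38 in Nx kidneys and lay near the lowest value in sham kidneys (adjusted p = 0.312), high in Nx mice 1 and 7 alone. The means of the liver list (6.53 to 6.96 in Nx mice, 5.95 to 6.81 in sham mice) and the adrenal list (3.38 to 4.08 and 3.27 to 3.45) were close. The muscle mean was 2.41 to 2.51 in Nx mice against 2.84 to 2.97 in sham mice. Of 9 muscle genes measured 1 was lower, Myh1 (-3.78), whose call did not hold in the settings given above. The median change of the muscle list was -0.02.

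The same effect at day 28, estimated from other mice with their own sham group, is set beside that at day 53 here. Other tissues were present at day 28 too: the pancreatic mean was 3.59 to 12.32 in Nx and 3.56 to 7.41 in sham kidneys, and the adipose mean 7.42 to 9.31 in Nx and 5.78 to 8.02 in sham kidneys, with 4 of 10 adipose genes higher (median 1.96). Their part in the likeness of the effects was not tested. Across the 13174 genes the effects correlated at r = 0.905 (Spearman 0.757; genes are not independent replicates). Of the genes higher at day 53, 825 were also higher at day 28, which is 78% of the day 53 list and 63.6% of the day 28 list. At day 28 the higher genes were 9.85% of all and the lower ones 9.14% (19% together). Of those lower, 540 were lower at day 28, or 61.4% and 44.9%, and no gene was called in opposite directions. The test of the difference between the effects called no gene (0%; 405 genes, or 3.07%, at an unadjusted p under 0.05). The median SE of such a difference was 0.17. Slc13a1 was higher by 1.19 at day 53 and 0.79 at day 28 (difference 0.41, 95% interval 0.02 to 0.79, adjusted p = 1) and Cyp2e1 by 1.31 and 0.53 (0.78, 0.04 to 1.52, adjusted p = 1). Col3a1 (2.99 and 3.13; difference interval -1.08 to 0.79) and Ccl8 (5.89 and 5.91; -1.96 to 1.91) had effects close to each other. Single genes passed under 3 alternatives: Prrt1 with no filter on low values (-0.02), Tshr without sham mouse 3 of day 28 (1.04, adjusted p = 0.0251) and Slx1b without sham mouse 5 of day 28 (lower at day 53, adjusted p = 0.00204).

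Against day 2 the effect differed for 1718 genes (13%), 957 with a higher effect at day 53 (7.26%) and 761 with a lower one (5.78%). At day 2 the pancreatic mean was 3.44 to 12.96 in Nx and 3.50 to 3.67 in sham kidneys, and the adrenal mean 3.29 to 3.42 in Nx and 3.25 to 7.50 in sham kidneys, and their part was not tested. Of 41 proximal tubule transport genes 29 had a higher effect at day 53 and none a lower one, and so had 15 of 29 proximal tubule enzymes and 22 of 36 amino acid breakdown genes. Slc34a1 changed by -0.05 at day 53 and -1.71 at day 2 (difference 1.65, SE 0.23, adjusted p = 2.24e-06), and Slc13a1 by 1.19 and -0.07 (1.26, SE 0.19, adjusted p = 8.86e-06). Cyp27b1 changed by 3.47 at day 53 and -2.58 at day 2, one of the largest differences (6.06, SE 0.84, adjusted p = 2.88e-06). The cell cycle went the other way: 39 of 46 genes had a lower effect at day 53 and 1 a higher one (median difference -2.11). Aurka changed by 0.01 at day 53 and 4.08 at day 2 (-4.08, SE 0.30, adjusted p = 8.8e-13). The injury genes Mmp7 and Krt20, which did not pass at day 53, were raised at day 2, with differences of -5.50 and -4.43. The neutrophil chemokine Cxcl5 differed by -5.69. Of 40 matrix genes 7 had a lower effect at day 53 and 1 a higher one, and 32 did not pass (median difference -0.75, against 0.005 for all genes). The median matrix effect was 1.56 at day 53 and 2.14 at day 2. Ccl8 was higher by 5.89 at day 53 and 2.81 at day 2 (difference 3.08, SE 0.96, adjusted p = 0.0267).

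Adipoq had the largest positive difference from day 2 (8.97, SE 1.71, adjusted p = 0.000275), and Ucp1 (7.33), Thrsp (6.79), Retn (5.65) and Cidec (4.70) were also among the 6 largest, with Cyp27b1 between Thrsp and Retn. Without Nx mouse 4 of day 53 Ucp1 did not pass (5.73, adjusted p = 0.0565), and with the adipose covariate neither Adipoq (2.90, adjusted p = 0.0858), Thrsp (0.33, adjusted p = 0.881) nor Retn (1.70, adjusted p = 0.282) did. Ucp1 (-0.68, adjusted p = 0.76) and Cidec (-0.17, adjusted p = 0.933) did not pass with that covariate either. The sham groups of the days differed in these genes. Sham kidneys of day 53 lay at 2.72 to 3.65 for Adipoq, while at day 2 it averaged 8.35 ± 1.57 in Nx and 9.83 ± 0.39 in sham kidneys (SD). Ucp1, the heat-making protein of brown fat, averaged 3.22 ± 1.67 in Nx and 8.40 ± 1.32 in sham kidneys at day 2.

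**Figure D4:**
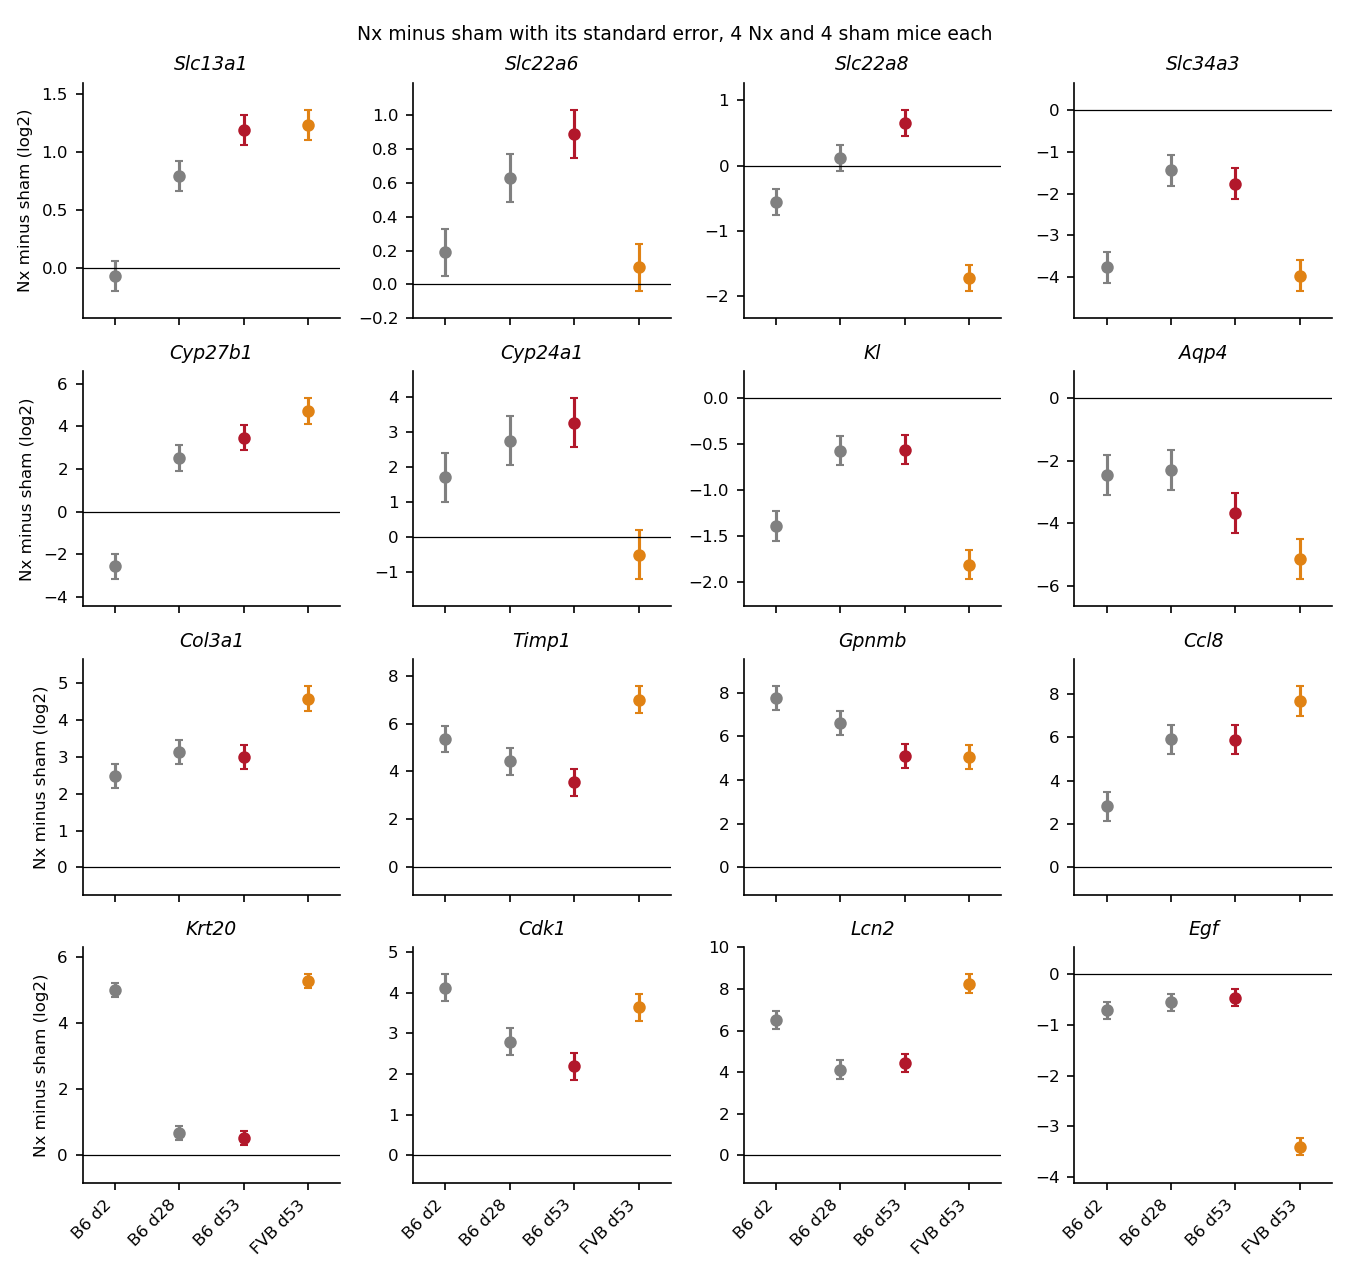
Nx minus sham on the log2 scale (vertical axis, scales differ) with its standard error for 16 genes, in B6 mice at days 2, 28 and 53 (53 in red) and in FVB mice at day 53 (orange), each from 4 Nx and 4 sham mice. Krt20 lies at 0.54 in B6 at day 53 against 5.25 in FVB at day 53, and Cyp27b1 lies at -2.58 at day 2 and 3.47 at day 53.

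In FVB kidneys of the same day the effect of Nx was broader, with 7075 genes called (53.7%), 25.9% of all genes higher and 27.8% lower. FVB Nx kidneys held other tissues as well, with a pancreatic mean of 3.93 to 13.33, a muscle mean of 2.40 to 7.73 and an adrenal mean of 3.32 to 9.00, against 3.48 to 3.54, 2.79 to 2.95 and 3.25 to 3.51 in FVB sham kidneys. In FVB 6 of 9 muscle genes and 2 of 3 adrenal genes were higher. The part of muscle and adrenal RNA in the strain differences was not tested, and without the arrays with pancreatic RNA 3397 genes differed between the strains. Of the genes higher in B6, 868 were also higher in FVB, or 82% of the B6 list and 25.4% of the FVB list, and 666 were lower in both, or 75.7% and 18.2%. The test of the difference between strains called 3839 genes (29.1%), of which 1965 had the higher effect in B6 (14.9%) and 1874 the lower one (14.2%). Tubule genes had higher effects in B6: 29 of 41 proximal tubule transport genes, 25 of 29 proximal tubule enzymes, 30 of 36 amino acid breakdown genes, 36 of 38 oxidative phosphorylation genes and 15 of 18 loop and distal tubule genes. Injury genes had lower effects in B6 in 28 of 33 cases, macrophage genes in 24 of 38 and matrix genes in 20 of 40, with no member of these 3 lists higher. Egf, made by the loop and distal tubule, lay at 13.16 to 13.56 in B6 Nx kidneys and 9.69 to 11.15 in FVB Nx kidneys, and its effect was -0.46 in B6 against -3.41 in FVB (difference 2.94, SE 0.24, adjusted p = 1.79e-11). Lcn2 rose by 4.44 in B6 against 8.26 in FVB (-3.82, SE 0.62, adjusted p = 1.22e-05). Krt20 changed by 0.54 in B6 against 5.25 in FVB (-4.70, SE 0.30, adjusted p = 2.2e-14).

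Not every gene was closer to sham in B6. The effects of Slc13a1 (1.19 in B6, 1.23 in FVB; difference interval -0.42 to 0.35), Postn (4.06 and 4.28; -1.94 to 1.51) and Retnla (4.08 and 3.95; -2.56 to 2.82) did not pass the test of the difference. Slc22a8 rose by 0.65 in B6 and fell by 1.72 in FVB, where Nx kidneys averaged 9.65 ± 0.39 and sham kidneys 11.38 ± 0.30 (SD; difference 2.37, SE 0.28, adjusted p = 3.8e-08). It was 1 of 51 genes called in opposite directions, among them Serpina1b (3.02 in B6, -1.52 in FVB), Glud1 (0.72 and -0.39), Aass (0.60 and -0.54) and Slc13a2 (0.62 and -1.22). Acsm3 rose by 3.05 in B6 and changed by 0.06 in FVB (2.99, SE 0.66, adjusted p = 0.000575), and Cyp24a1 by 3.25 and -0.52 (3.77, SE 0.99, adjusted p = 0.00329). Akr1c18 fell by 2.77 in B6 against a change of 1.01 in FVB (-3.77, SE 0.79, adjusted p = 0.000344), and Itgb6 fell by 1.48 against 0.09 (-1.57, SE 0.42, adjusted p = 0.00443). For some genes the strains differed in sham kidneys. Mcm6 lay at 7.93 to 8.53 in Nx and 8.21 to 8.52 in sham kidneys of B6, and at 8.42 to 8.91 in Nx and 3.35 to 4.91 in sham kidneys of FVB. Serpina6 lay at the lowest value in the B6 mice of day 53 and in FVB Nx mice, and at 6.26 to 9.08 in FVB sham mice.

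**Figure D5:**
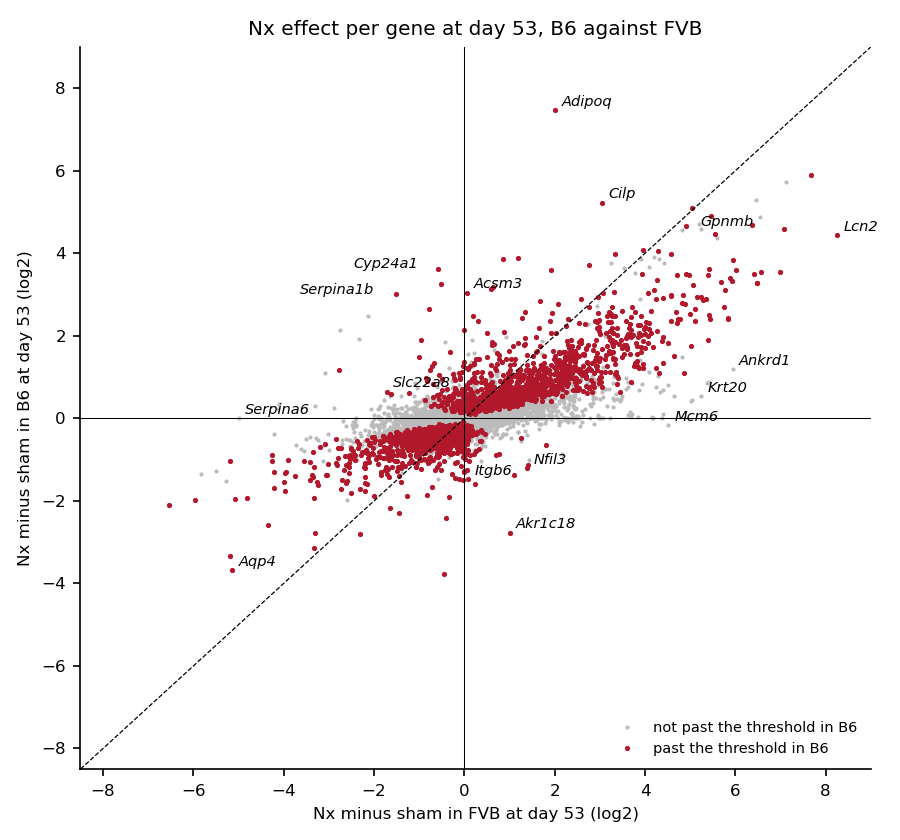
Nx minus sham on the log2 scale for each of 13174 genes at day 53, in B6 (vertical axis) against FVB (horizontal axis), with genes past the threshold in B6 in red, others in grey and the line of equal effects dashed. The 2 effects share no array; Adipoq (7.48 in B6, 2.01 in FVB) lies above the line and Lcn2 (4.44, 8.26) and Krt20 (0.54, 5.25) below it.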

How the data were processed

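Whole-kidney RNA was hybridised to Affymetrix mouse arrays, 1 per animal. The submitters' processing notes name MAS5 without a role or version. The deposited table holds 45101 probe sets on 48 arrays as log2 values (judged from the values, which run from 2.198 to 16.18), and how the authors corrected background and normalised is not given in the sources used here. On the 8 B6 day 53 arrays 31.8% to 32.5% of the deposited log2 values lay at the lowest value, and array medians ran from 3.19 to 3.28, so no further scaling was applied. The number of arrays, 4 per group, limits the precision.

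Probe sets were named from the platform annotation supplied (34958 with 1 symbol, 932 with several, 9211 not listed). Those above the 40th percentile of all values (2.28) on at least 4 arrays were kept, and each of 13174 genes was represented by its probe set with the highest mean. Genes outside this set are not analysed here. A fold against a group with every array no higher than that filter value is a bound, computed against it. Of 313 called list or named genes, 3 (Gpnmb, Retn and Timp1) had all 4 sham values within 0.05 of their probe set's own lowest value, and their folds are given as bounds.

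Means of 12 groups were fitted over all 48 arrays with limma 3.58.1 in R 4.3.3 (eBayes with intensity trend, 36 residual degrees of freedom, two-sided, Benjamini-Hochberg over the 13174 genes of each contrast), which was tested on simulated data. Besides Nx against sham in B6 at day 53, its difference from the effects in B6 at day 28, B6 at day 2 and FVB at day 53 was tested, each effect having its own sham group. The animals are separate mice per the labels. Tables and plots used Python 3.11.15 with pandas 2.3.3 and, for drawing, matplotlib 3.10.9.

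The rule for named genes takes the 12 highest and 12 lowest changes past the threshold without overlap, the 6 highest and 6 lowest past the threshold for each difference, and up to 4 members of each of 42 gene lists with the smallest p, with provisional gene models skipped. Further list members are named for their role. The members, lists and the pancreatic mean of 5 were chosen with earlier results of these data known. The genes named for their role, the promoters and their motif, the genes labelled in the plots and the adipose covariate were chosen after values were seen. The alternatives tried were a median shift of each array, quantile normalisation, no filter and a stricter one, the mean of all probe sets, no trend, array weights, a block for mouse number, the pancreatic or adipose mean as a covariate, only the arrays of the comparison, leaving out arrays with pancreatic RNA, and leaving out each mouse.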

Additional observations from a re-analysis of the deposited data

Results flagged for a closer look

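In 43 of 480 groups of 4 values (a named gene or list mean in the Nx or sham mice of day 53), 1 mouse lay far from the other three by Dixon's criterion. Chance gives about 1 in 20 groups, and the groups share their 8 mice. A further 22 groups at or under the filter value were not tested. Of the 43 values, 21 came from sham mouse 1: Aass 12.67, Actn2 2.45, Ccl9 5.52, Cdk1 4.88, Cdkn3 2.31, Cyp2e1 10.27, Edem1 9.06, Glud1 12.73, Hp 3.04, Myh4 2.31, Oat 12.74, Phlda3 5.32, Pklr 6.05, S100a8 4.39, S100a9 2.58, Slc22a8 10.55, Sprr2f 2.50, Ttr 14.29 and Vcam1 8.28, with the list means of amino acid breakdown at 10.49 and the circadian clock at 7.72. Without this mouse 1817 genes differed between Nx and sham kidneys. Sham mouse 3 stood apart for Apoa1 4.38, Ccl12 2.60, Cela3b 2.67, Pf4 3.76 and Serpina1b 5.66, sham mouse 5 for Cilp 2.54 and Cox4i1 14.65, and sham mouse 6 for Ccl8 2.86, Cyp7b1 6.90, Sptssb 7.65 and the growth factor list mean of 9.00. Nx mouse 1 stood apart for Ankrd1 6.02, Ccr2 7.21, Cdkn3 2.46, Mmp7 2.36 and the list mean of cell cycle inhibitors of 8.01. Nx mouse 2 stood apart for the endothelium list mean of 7.68, Nx mouse 4 for Cpne4 2.28 and Irf7 2.34, and Nx mouse 7 for S100a8 6.06, S100a9 4.21 and Trpm6 7.75.

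The Nx effect in B6 at day 53 differed from that at day 2 for 1718 genes by the limma test of the difference. The 6 highest were Adipoq 8.97, Ucp1 7.33, Thrsp 6.79, Cyp27b1 6.06, Retn 5.65 and Cidec 4.70, and the 6 lowest were Cxcl5 -5.69, Mmp7 -5.50, Cdkn3 -4.59, Krt20 -4.43, Clec4n -4.39 and Sprr2f -4.36 (log2, day 53 minus day 2). From the effect in FVB at day 53 it differed for 3839 genes, with Adipoq 5.48, Serpina6 4.99, Sptssb 4.60, Serpina1b 4.55, Hpd 4.47 and Cyp2d12 4.44 as the highest and Ankrd1 -4.76, Krt20 -4.70, Mcm6 -4.69, Cfi -4.63, Smpdl3b -4.60 and Clec4n -4.53 as the lowest (log2, B6 minus FVB). Adipoq did not pass there without the arrays with pancreatic RNA (5.13, adjusted p = 0.082) or with the adipose covariate (1.90, adjusted p = 0.152). Sptssb spread widely, with 3.83 to 8.88 in B6 Nx mice and up to 7.65 in B6 sham mice.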

How the results depend on the processing

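The count of 1938 genes for Nx against sham at day 53 became 3288 with array weights (49% higher, against 54.6%, and 46.6% after quantile normalisation) and 868 without the arrays whose pancreatic mean lay above 5, a setting that leaves 2 Nx arrays. It ran from 1344 (without Nx mouse 1) to 1833 when 1 mouse was left out, and from 1450 to 2287 under the other alternatives. No gene differed from day 28, except that 1 did with no filter on low values, and from 0 to 1 did when 1 mouse was left out. The 1718 genes that differed from day 2 became 2691 with array weights and 1301 to 2016 when 1 mouse was left out, and the 3839 that differed from FVB became 3392 to 3946 when 1 mouse was left out. With a random replicate block for mouse number the counts were 2075, 0, 1810 and 3877. The Nx and sham mice of day 53 share only mouse number 1, so the numbers were not taken to pair animals. Leaving out the arrays with pancreatic RNA could not be run for the differences from day 28 and day 2, where too few arrays remain.

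Of 150 called genes named by the rules, 126 kept the call whichever single mouse was left out, 51 lost it without the arrays with pancreatic RNA, 23 with the adipose covariate, 13 with only the 8 arrays and 5 with the pancreatic covariate. With the adipose covariate, chosen after seeing the data, the differences from day 2 of Ucp1 and Cidec changed sign and did not pass. They were -0.68 (adjusted p = 0.76) for Ucp1 and -0.17 (adjusted p = 0.933) for Cidec. The adipose list holds both genes, so the covariate contains them. The median over all genes was -0.012 as deposited, -0.049 after quantile normalisation and -0.025 after a median shift. Values at the lowest value of the table limit what can be measured for low genes.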
